A study of Mus musculus with 15 samples.

Results

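The imprinted growth genes examined here were *Peg10*, *Sgce*, *H19*, *Dlk1*, *Meg3*, *Cdkn1c*, *Plagl1*, *Peg3*, *Mest* and *Grb10*, 10 of the 24134 genes in the count tables. They were listed by name, and the list was drawn up because *Peg10* had been seen to rise with IWR-1 and not in the other comparisons. The values of *Peg10* in these comparisons therefore chose the list and are given as a description, without a test. The other genes were also listed with earlier results of these data known, so their counts beside all genes are descriptive. RNA-seq had been performed on primary articular chondrocytes at passage 0, which the study took from the knee joints of ICR mice 4 to 5 days old. In the siRNA table, 3 libraries came from cells transfected with control siRNA (siCtrl) and 3 from cells transfected with siRNAs against both *Tnks* and *Tnks2* (siTnks/2), the genes of the tankyrases. In the drug table, 3 libraries each came from cells kept for 108 h with the solvent DMSO, with 10 μM XAV939 or with 10 μM IWR-1, small molecules that inhibit tankyrase. The study's methods call the 3 libraries of a group biological replicates. They give no harvest time for the siRNA experiment and do not say whether a replicate was a separate animal, litter or culture, so p-values measure the spread between these libraries. The labels name no genetic modification in any of the 15 libraries. Reads of the maternal and the paternal copy were counted together, so imprinting itself was not measured.

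In mammals a few genes are imprinted, which means that only the copy inherited from one parent is transcribed, and many of them set the growth of the embryo and the placenta. Paternally expressed genes often promote growth and maternally expressed ones often restrain it. Several genes of this class are active in the fetal and newborn skeleton, are linked in clusters that share an imprinting control region, and are switched down after birth. *Peg10* is derived from an ancient retrotransposon and, like a virus, makes a longer protein product as well when ribosomes slip back by a base at a short heptamer on its mRNA.

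The stretch of the *Peg10* transcript with this heptamer is shown because the read count sums both products of the gene. It was read from GENCODE M21 transcripts of build GRCm38 (positions 1447 to 1513 of transcript Peg10-202, on the plus strand at chr6:4755297-4755363), with the heptamer GGGAAAC in capitals.
Peg10-202: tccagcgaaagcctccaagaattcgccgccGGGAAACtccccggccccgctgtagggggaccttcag
Peg10-202 and Peg10-203 held the heptamer once each, and the third annotated transcript, Peg10-201, did not hold it.

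Promoters of 6 of the 10 genes were found in RefSeq (GRCm38.p6), each window running from 250 bases before to 50 bases after the transcription start. *Peg10*, *Sgce*, *H19* and *Cdkn1c* were not matched. The windows of *Plagl1* and *Peg3*, transcription factor genes that were higher with IWR-1, are shown with CpG dinucleotides, the sites of imprinting methylation, in capitals.
Plagl1 promoter (chr10:13090582-13090881, plus strand): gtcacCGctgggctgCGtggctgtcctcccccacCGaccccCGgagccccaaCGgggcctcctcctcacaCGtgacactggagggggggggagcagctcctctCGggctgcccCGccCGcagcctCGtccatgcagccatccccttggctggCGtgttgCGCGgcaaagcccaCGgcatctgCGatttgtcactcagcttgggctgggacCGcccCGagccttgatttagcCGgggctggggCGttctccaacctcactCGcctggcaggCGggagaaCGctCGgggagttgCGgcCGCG
Peg3 promoter (chr7:6730370-6730669, minus strand): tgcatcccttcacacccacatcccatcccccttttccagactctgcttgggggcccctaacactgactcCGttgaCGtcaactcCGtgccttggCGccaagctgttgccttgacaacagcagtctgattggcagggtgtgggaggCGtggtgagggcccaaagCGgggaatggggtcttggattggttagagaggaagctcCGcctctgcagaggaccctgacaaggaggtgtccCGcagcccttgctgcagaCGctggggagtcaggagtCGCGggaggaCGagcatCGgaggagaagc
The *Plagl1* window held 26 CpG and the *Peg3* window 13, against a median of 7 in 32851 promoter windows of the same length. GGGGCCCC, a palindrome known as a binding motif of the PLAGL1 protein, was searched on both strands. It occurred in the *Peg3* window at bases chr7:6730613-6730620, here in capitals with its neighbours.
Peg3 motif (minus strand): gactctgcttgGGGGCCCCtaacactgact
The promoter window of *Usp29*, which starts on the other strand, overlaps that of *Peg3* and held the same copy. Of all 32851 windows 1.08% held this motif. It did not occur in the windows of the other 5 matched genes. A match of letters is a description and was not tested as a binding site.

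*H19* and *Mest* are also hosts of microRNAs, whose mature sequences are given from RefSeq with the seed, bases 2 to 8, in capitals.
miR-675-5p (H19): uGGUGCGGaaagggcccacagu
miR-675-3p (H19): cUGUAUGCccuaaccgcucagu
miR-335-5p (Mest): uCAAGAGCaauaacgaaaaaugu
miR-335-3p (Mest): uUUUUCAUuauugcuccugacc
None of these 4 shared a seed. The libraries were made from poly(A) RNA, so mature microRNAs were not measured. The row of *Mir675* was at 0 in all libraries, and that of *Mir335* held 6 to 15 counts in the siRNA table and 0 to 10 in the drug table.

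Libraries held between 26857070 and 36615194 counts. Levels are given as CPM, read counts scaled to a common library size by TMM within each table. Differences between groups are log2 fold changes with their standard error (SE), and the 9 genes other than *Peg10* were tested with edgeR's quasi-likelihood test, with Benjamini-Hochberg adjustment over all genes tested (13672 in the siRNA table, 13873 in the drug table) and 0.05 as the limit of a call. These tests did not pair libraries by replicate number, which was done only where a replicate block is named. *Tnks* was at 69.0, 58.4 and 70.1 CPM in siCtrl replicates 1, 2 and 3 and at 19.5, 12.7 and 24.0 CPM in siTnks/2. *Tnks2* was at 118, 120.0 and 115 CPM and at 58.2, 44.9 and 61.2 CPM in the same order. Both were lower after knockdown (log2 fold change −1.81, SE 0.22, edgeR adjusted p = 0.00569, and −1.10, SE 0.11, adjusted p = 0.00384). The labelled cell type was checked with 13 chondrocyte markers. None of the 13 was at 3 counts or fewer throughout, and their summed level was 28990 to 39414 CPM under DMSO, 41205 to 61579 with XAV939, 99172 to 125812 with IWR-1, 96114 to 128323 in siCtrl and 139107 to 223784 in siTnks/2. The summed level of 7 fibroblast markers was 12224 to 15322 CPM under DMSO, 6402 to 8396 with XAV939, 5859 to 8824 with IWR-1, 5588 to 9586 in siCtrl and 2875 to 8107 in siTnks/2. In these bulk samples fewer cells of a type and less RNA per cell cannot be told apart. Of the other marker lists, summed levels reached at most 8.57 CPM for 8 skeletal muscle genes, 6.88 CPM for 5 endothelial genes and 11.9 CPM for 7 leukocyte genes, but 53.4 CPM for 6 adipocyte genes, under DMSO, and 132 CPM for 5 osteoblast genes, in siTnks/2. The muscle genes *Myf5* and *Ckm* had at most 3 counts in every library.

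With IWR-1, *Peg10* stood 3.99-fold above DMSO while no difference was called for its neighbour *Sgce*, and 7 of the 9 other genes were called higher than with DMSO. *H19*, *Plagl1* and *Peg3* rose most, and *Cdkn1c*, *Meg3*, *Dlk1* and *Mest* by less. None of the 9 was called lower. Of all 13873 genes tested, 16.2% were called higher and 20.2% lower. The 9 were listed with earlier results of these data known, so these shares stand beside the count without a test. Across the 9, log2 fold changes had a median of 0.57, against 0.00559 over all genes tested. Of the 9, 8 had every IWR-1 library above every DMSO library, which held for 24.7% of all genes. DESeq2 called 8 of the 9 higher and 0 lower. Of the 18612 genes in its fit, which had no filter on low counts, DESeq2 called 2350 higher and 2961 lower (28.5% in either direction). The edgeR count of called genes was 4 without DMSO replicate 1 and 4 without IWR-1 replicate 3. Of all genes, 27.5% and 31.8% were called in these fits, against 36.4% with every library. As given above, the summed level of the chondrocyte markers was higher and that of the fibroblast markers lower with IWR-1 than with DMSO, with all 13 chondrocyte markers called higher and, of 7 fibroblast markers, 4 called lower and 1 (*Postn*) higher. Of 4 osteoblast markers tested, *Sp7* (2.47, SE 0.17, edgeR adjusted p = 3.11e-06) and *Bglap* (1.51, SE 0.39, adjusted p = 0.00946) were higher with IWR-1, and *Phex* (0.64) and *Ibsp* (−0.35) were not called. *Sp7* (1.62) and *Bglap* (1.88) were also called higher with XAV939. Summed osteoblast levels overlapped, at 42.6 to 65.7 CPM under DMSO and 42.8 to 61.2 with IWR-1. Of 2 adipocyte markers *Pparg* was higher (0.58, SE 0.18, edgeR adjusted p = 0.0274) and *Fabp4* lower (−1.61, SE 0.16, adjusted p = 3.17e-05). Of 3 leukocyte markers tested, *Cd68* (−1.02) and *Csf1r* (−1.16) were called lower, as was *Tek* (−2.30), the 1 endothelial marker tested. The part of these markers in the levels of the imprinted genes was not tested.

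*Peg10* (Entrez Gene 170676, build GRCm38, chromosome 6, 4747306 to 4760517, plus strand) and *Sgce* (chromosome 6, 4674350 to 4747204, minus strand) are both paternally expressed and are transcribed in opposite directions from starts 101 bases apart. *Sgce* encodes epsilon-sarcoglycan, a membrane protein of the dystrophin-associated complex. *Peg10* was at 43.0, 36.3 and 33.8 CPM in DMSO replicates 1, 2 and 3, at 50.2, 45.7 and 39.4 CPM under XAV939 and at 167, 144 and 140.0 CPM under IWR-1. The 3 IWR-1 libraries lay above the other 6 drug libraries, and DMSO and XAV939 overlapped. The log2 fold change was 2.00 (SE 0.13) for IWR-1 against DMSO, 0.26 (SE 0.13) for XAV939 against DMSO and 1.74 (SE 0.13) for IWR-1 against XAV939. In the siRNA table *Peg10* was at 237, 207 and 234 CPM in siCtrl and at 176, 140.0 and 181 CPM in siTnks/2, and every knockdown library was below every control library (log2 fold change −0.45, SE 0.11). IWR-1 and the knockdown thus moved *Peg10* in opposite directions in these libraries. When each library in turn was left out, the change with IWR-1 stayed between 1.91 and 2.10, and that with knockdown between −0.52 and −0.34.

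*Sgce* was at 62.1, 63.5 and 44.6 CPM under DMSO, at 74.2, 65.0 and 57.2 CPM under XAV939 and at 62.2, 55.0 and 49.7 CPM under IWR-1. These 3 groups overlapped, and the difference of IWR-1 from DMSO was −0.03 on the log2 scale (95% interval −0.37 to 0.31, edgeR adjusted p = 0.902). After knockdown *Sgce* was at 36.7, 32.4 and 35.9 CPM, below the 43.2, 43.6 and 43.5 CPM of siCtrl (log2 fold change −0.31, SE 0.07, edgeR adjusted p = 0.0229). This call was lost in each fit without 1 of the siCtrl libraries or without siTnks/2 replicate 1 (−0.35 to −0.31, edgeR adjusted p between 0.0566 and 0.0864). The ratio of *Peg10* to *Sgce* reads, which needs no scaling between libraries, was 0.692, 0.572 and 0.757 with DMSO, 0.676, 0.703 and 0.689 with XAV939 and 2.69, 2.63 and 2.81 with IWR-1. In the siRNA table it was 5.48, 4.74 and 5.39 in siCtrl and 4.78, 4.33 and 5.03 in siTnks/2, which overlapped. The pair therefore separated with IWR-1, where the ratio rose by 2.02 on the log2 scale, and moved down together after knockdown. No test is given for these ratios because they hold *Peg10*.

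**Figure D1:**
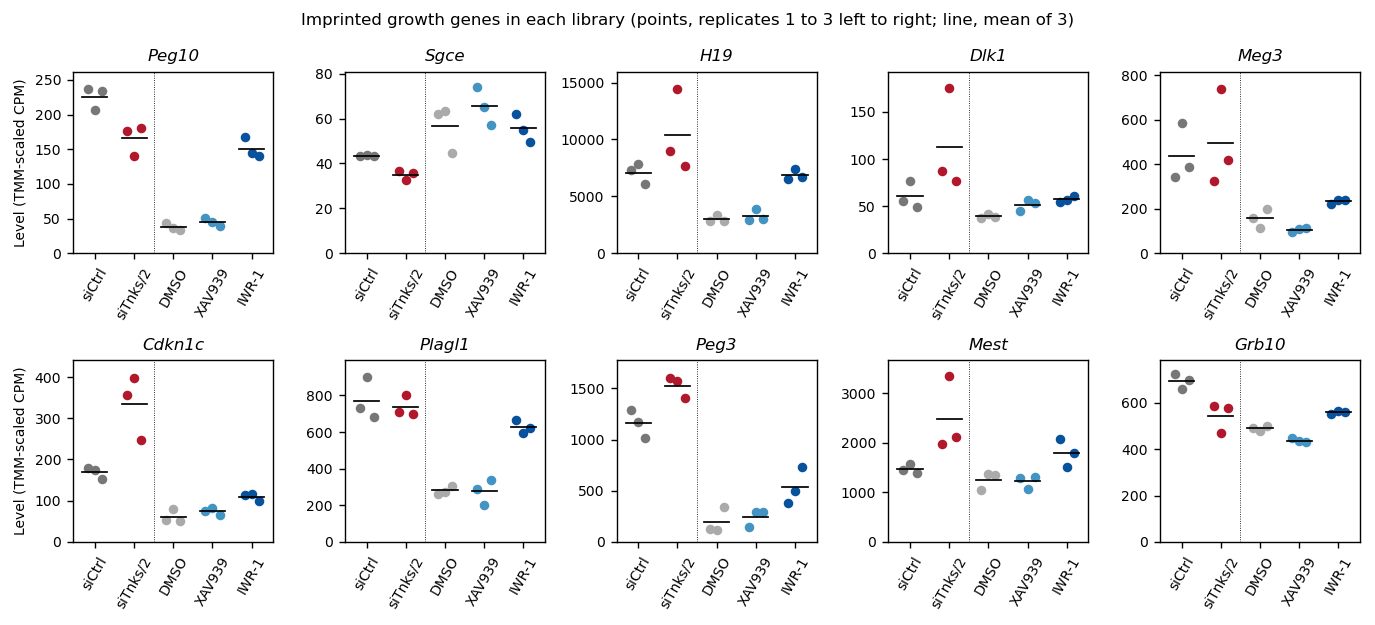
Level of each gene in CPM (linear axes from 0) in the 15 libraries, with points for replicates 1 to 3 and a line at the mean of 3. The dotted line parts the siRNA table from the drug table, which were scaled separately. *Peg10* with IWR-1 lay between 140.0 and 167 CPM, above DMSO and XAV939, whereas *Sgce* overlapped across the drug groups.

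*H19* and *Meg3* are maternally expressed long noncoding RNAs, and *Dlk1*, a paternally expressed neighbour of *Meg3*, encodes a membrane-bound relative of the Notch ligands that is known to hold back differentiation. *H19* (chromosome 7, 142575530 to 142578146) was at 2802, 3330 and 2817 CPM under DMSO, at 2879, 3915 and 2963 CPM under XAV939 and at 6568, 7409 and 6706 CPM under IWR-1. It rose with IWR-1 (log2 fold change 1.21, SE 0.16, edgeR adjusted p = 0.000161), and with XAV939 the libraries overlapped those of DMSO (0.13, 95% interval −0.22 to 0.47, adjusted p = 0.61). In the siRNA table it was at 7276, 7850 and 6085 CPM in siCtrl and at 9006, 14476 and 7625 CPM in siTnks/2. These groups overlapped, and the difference (0.55, SE 0.25, edgeR adjusted p = 0.16) was called only with the replicate number as a block (0.51, SE 0.14, adjusted p = 0.0392). Replicate 2 set much of it, since without that knockdown library the difference was 0.23. *Igf2*, a paternally expressed growth factor gene of the same cluster, was at 8131, 8678 and 7512 CPM under DMSO and at 12398, 13933 and 12267 CPM under IWR-1 (log2 fold change 0.67, SE 0.14, edgeR adjusted p = 0.00394). After knockdown every *Igf2* library was above every control library (0.68, SE 0.20, edgeR adjusted p = 0.0602). That difference was called with the replicate block (0.66, SE 0.09, adjusted p = 0.00727). *H19* reads per *Igf2* read were 0.345, 0.384 and 0.375 with DMSO and 0.530, 0.532 and 0.547 with IWR-1, groups that did not overlap (exact permutation test, two-sided, p = 0.1, adjusted p = 0.2 over 20 ratio tests). With 3 libraries against 3, no p below 0.1 is possible in such a test.

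*Dlk1* (chromosome 12, 109452485 to 109463336) was at 37, 41.6 and 38.4 CPM under DMSO, at 44.9, 56.0 and 53.6 CPM under XAV939 and at 54.6, 56.9 and 60.3 CPM under IWR-1. Every inhibitor library was above every DMSO library, and *Dlk1* was the one gene of the 9 called higher with both inhibitors (XAV939 0.40, SE 0.11, edgeR adjusted p = 0.0267, and IWR-1 0.55, SE 0.11, adjusted p = 0.00207). *Meg3* (chromosome 12, 109540996 to 109571729, with *Rtl1* overlapping on the other strand) was at 158, 115 and 197 CPM under DMSO, at 94.1, 108 and 115 CPM under XAV939 and at 221, 239 and 237 CPM under IWR-1. It was called lower with XAV939 (−0.57, SE 0.17, edgeR adjusted p = 0.0407), though the libraries overlapped, and higher with IWR-1 (0.57, SE 0.17, adjusted p = 0.0211). The pair thus moved apart with XAV939 and together with IWR-1. *Meg3* reads per *Dlk1* read were 4.27, 2.77 and 5.12 with DMSO, 2.10, 1.92 and 2.15 with XAV939 and 4.05, 4.2 and 3.94 with IWR-1. The XAV939 ratios lay below both other groups (exact permutation test, two-sided, p = 0.1, the smallest possible, adjusted p = 0.2, against DMSO and against IWR-1). After knockdown *Dlk1* was at 87.4, 175 and 76.8 CPM against 55.3, 76.4 and 49.0 CPM in siCtrl, without overlap but with replicate 2 far above. The difference was 0.91 (SE 0.33, edgeR adjusted p = 0.0976), 0.84 with the replicate block (SE 0.12, adjusted p = 0.00669) and 0.45 without siTnks/2 replicate 2. *Meg3* overlapped between siCtrl, at 341, 583 and 388 CPM, and siTnks/2, at 322, 737 and 420.0 CPM (0.17, 95% interval −0.61 to 0.95). Replicate 2 was the highest library of both siRNA groups for *Dlk1* and *Meg3* alike.

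The calls of *Dlk1* and *Meg3* with XAV939 were lost when single libraries were left out. *Dlk1* passed 0.05 in 3 of the 9 fits that left out 1 library and *Meg3* in 2. *Dlk1* lost the call without DMSO replicate 1 or 3, XAV939 replicate 2 or 3, or IWR-1 replicate 1 or 2 (0.34 to 0.40, adjusted p up to 0.111), and *Meg3* without DMSO replicate 1 or 3, XAV939 replicate 1 or 2, or any IWR-1 library (−0.59 to −0.38, adjusted p up to 0.131). *Meg3* with IWR-1 lost its call without DMSO replicate 1 or IWR-1 replicate 2 or 3 (0.54 to 0.58, adjusted p up to 0.0647).

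*Cdkn1c* and *Grb10*, both maternally expressed in most tissues, are known as brakes on growth. *Cdkn1c* encodes p57, an inhibitor of cyclin-dependent kinases that is also known from cartilage, where chondrocytes leave the cell cycle, and *Grb10* an adaptor that dampens signalling of the insulin and IGF1 receptors. *Cdkn1c* (chromosome 7, 143458339 to 143461059) was at 180.0, 174 and 153 CPM in siCtrl and at 357, 398 and 248 CPM in siTnks/2. It rose 1.98-fold after knockdown (log2 fold change 0.98, SE 0.17, edgeR adjusted p = 0.0136), the change of greatest size among the 10 genes in that table. In the drug table it was at 54.1, 80.5 and 49.9 CPM under DMSO, at 75.1, 81.3 and 66.4 CPM under XAV939 and at 113, 116 and 99.0 CPM under IWR-1. It rose with IWR-1 (0.83, SE 0.17, edgeR adjusted p = 0.00284), and XAV939 overlapped DMSO (0.27, 95% interval −0.10 to 0.64, adjusted p = 0.292). *Grb10* (chromosome 11, 11930499 to 12037428) varied little between the libraries of a drug group, at 492, 480.0 and 501 CPM under DMSO, 447, 436 and 429 CPM under XAV939 and 554, 563 and 561 CPM under IWR-1. The 3 drug groups did not overlap, but neither inhibitor passed the limit against DMSO (XAV939 −0.17, 95% interval −0.37 to 0.03, edgeR adjusted p = 0.228, and IWR-1 0.19, 95% interval −0.01 to 0.39, adjusted p = 0.128). After knockdown it was at 585, 471 and 579 CPM, below the 724, 660.0 and 700.0 CPM of siCtrl (−0.35, SE 0.10, edgeR adjusted p = 0.0534, and −0.36, SE 0.06, adjusted p = 0.0125 with the replicate block). *Grb10* was also called lower without siTnks/2 replicate 2 (−0.26, adjusted p = 0.0362).

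*Plagl1* and *Peg3*, both paternally expressed, encode zinc finger proteins, and PLAGL1 is known to regulate other imprinted genes. *Plagl1* (chromosome 10, 13090832 to 13131694) was at 262, 274 and 308 CPM under DMSO, at 290.0, 202 and 339 CPM under XAV939 and at 664, 595 and 624 CPM under IWR-1. It rose with IWR-1 (log2 fold change 1.16, SE 0.17, edgeR adjusted p = 0.000353), while XAV939 lay on both sides of DMSO (−0.02, 95% interval −0.39 to 0.35, adjusted p = 0.943). In siCtrl it was at 731, 900.0 and 680.0 CPM and in siTnks/2 at 711, 804 and 700.0 CPM, which overlapped (−0.06, 95% interval −0.35 to 0.22, edgeR adjusted p = 0.751). *Plagl1* was thus called in the comparisons with IWR-1 and in no other.

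*Peg3* (chromosome 7, 6703892 to 6730462) was at 130.0, 120.0 and 345 CPM under DMSO, at 150.0, 297 and 292 CPM under XAV939 and at 382, 498 and 733 CPM under IWR-1. The replicates spread widely, with DMSO replicate 3 close to the IWR-1 libraries. *Peg3* was called higher with IWR-1 (1.44, SE 0.42, edgeR adjusted p = 0.0197), by 2.10 without DMSO replicate 3. The call was lost without DMSO replicate 1 (1.21, adjusted p = 0.0793), DMSO replicate 2 (1.18, adjusted p = 0.0597) or IWR-1 replicate 3 (1.13, adjusted p = 0.0756). After knockdown it was at 1598, 1574 and 1406 CPM against 1286, 1173 and 1013 CPM in siCtrl, a small rise without overlap (0.40, SE 0.11, edgeR adjusted p = 0.0477). That call was lost in each of the 6 fits that left out 1 library (0.31 to 0.49, edgeR adjusted p between 0.0524 and 0.141), with upper-quartile normalization (adjusted p = 0.0508) and without the filter on low counts (adjusted p = 0.0532).

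*Mest* (chromosome 6, 30733506 to 30748466) is paternally expressed, encodes an enzyme of the alpha/beta-hydrolase fold family and marks mesoderm. It was at 1039, 1359 and 1340.0 CPM under DMSO, at 1287, 1064 and 1317 CPM under XAV939 and at 2071, 1508 and 1789 CPM under IWR-1. It rose with IWR-1 (0.52, SE 0.16, edgeR adjusted p = 0.0255), a call lost without DMSO replicate 1 (0.41, adjusted p = 0.111), IWR-1 replicate 1 (0.40, adjusted p = 0.12) or IWR-1 replicate 3 (0.51, adjusted p = 0.0627). XAV939 overlapped DMSO (−0.03, 95% interval −0.38 to 0.33, edgeR adjusted p = 0.925). After knockdown it was at 1978, 3336 and 2118 CPM against 1449, 1561 and 1385 CPM (0.76, SE 0.20, edgeR adjusted p = 0.0434), again with replicate 2 far above, and 0.48 without that library. The 3' end of *Mest* overlaps *Copg2* on the other strand, and the strand setting of the counting is not given in the sources used here, so reads of these genes may have been shared.

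**Figure D2:**
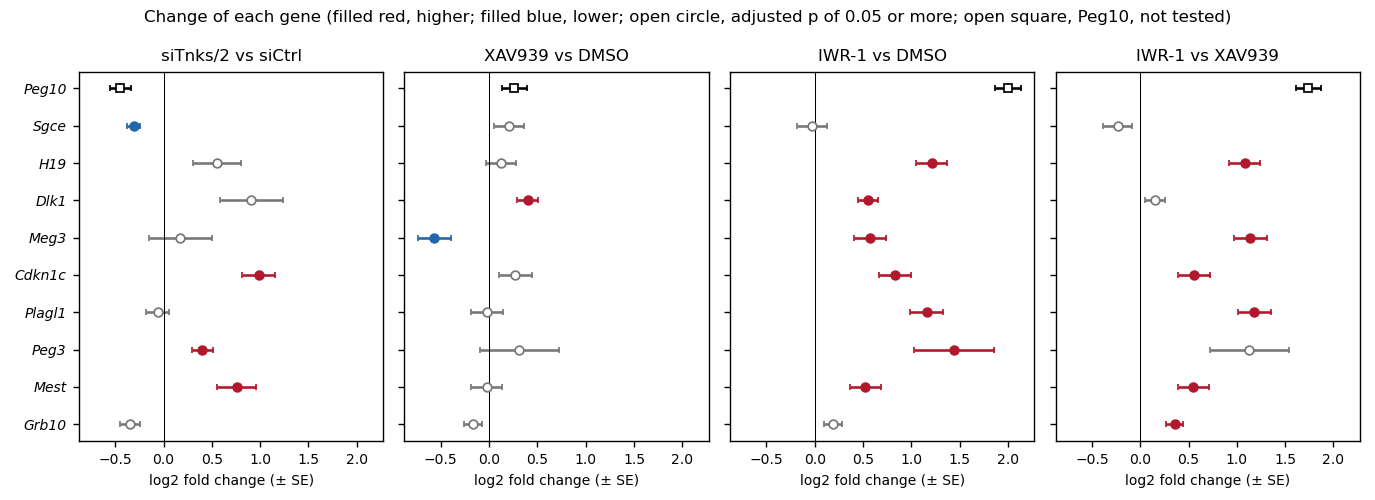
Log2 fold change (± SE) of the 10 genes in each comparison. Filled symbols passed an adjusted p of 0.05 (red higher, blue lower), open circles did not, and the open square is *Peg10*, which was not tested. With IWR-1, 7 of 9 circles are filled and red, with XAV939 1 is red and 1 blue.

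After knockdown, 3 of the 9 genes were called higher (*Cdkn1c*, *Peg3* and *Mest*) and 1 lower (*Sgce*), where 10.4% of all genes tested were called higher and 7.61% lower. Across the 9, log2 fold changes had a median of 0.40, against −0.00115 over all genes. With the replicate block 5 were higher, with *Dlk1* and *H19* added, and 2 lower, with *Grb10* added, against 18.1% and 16.5% of all genes. Without siCtrl replicate 1, 2 or 3 or siTnks/2 replicate 1 the count fell to 0 of 9, and over all genes to between 4.40% and 6.72%. *Cdkn1c* lost its call in these 4 fits (0.92 to 1.04, edgeR adjusted p between 0.0534 and 0.06), as did *Mest* (0.72 to 0.90, adjusted p between 0.0556 and 0.137). siTnks/2 replicate 2, the highest library for *H19*, *Dlk1*, *Meg3*, *Cdkn1c* and *Mest*, also had the highest summed chondrocyte markers (223784 CPM) and the lowest summed fibroblast markers (2875 CPM). Their part in these changes was not tested. With XAV939, 1 of the 9 was called higher (*Dlk1*) and 1 lower (*Meg3*), where 7.57% of all genes were called higher and 9.85% lower. The median of the 9 was 0.13, against 0.0158 over all genes. Upper-quartile normalization left the call of *Dlk1* alone, where 18.1% of all genes were called either way, against 17.4% as first fitted. A fit of only DMSO and XAV939 left 0, beside 11.5% of all genes. Of the fits without 1 library, 5 were also at 0, beside 9.45% to 15.3% of all genes (without DMSO replicate 1 or 3, XAV939 replicate 2, or IWR-1 replicate 1 or 2). Without XAV939 replicate 1 or 3 or IWR-1 replicate 3 the count was 1, beside 11.7% to 17.7%. Without DMSO replicate 2 it was 3, with *Cdkn1c* added (0.51, adjusted p = 0.0229), beside 16.2%. Among all genes called in that comparison, 43.5% were higher, and 53.3% with upper-quartile normalization. XAV939 and IWR-1 were set against the same 3 DMSO libraries.

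XAV939 and IWR-1 were compared directly, at the same dose and time, in 1 pair of groups. *Peg10* was 3.34 times as high with IWR-1. Of all genes, 7.37% were called higher with IWR-1 and 10.2% lower. Of the 9 other genes, 6 were called higher and 0 lower, with the same counts from DESeq2, where 15.4% of all genes were called. These were *Plagl1* (log2 difference 1.18, SE 0.17, edgeR adjusted p = 0.00111), *Meg3* (1.14, SE 0.17, adjusted p = 0.00137), *H19* (1.08, SE 0.16, adjusted p = 0.00113), *Cdkn1c* (0.56, SE 0.17, adjusted p = 0.0424), *Mest* (0.55, SE 0.16, adjusted p = 0.0376) and *Grb10* (0.36, SE 0.09, adjusted p = 0.0205). *Peg3* differed by 1.13 (95% interval 0.21 to 2.04, edgeR adjusted p = 0.0873), and by 1.11 with the replicate block (SE 0.21, adjusted p = 0.00225). No difference was called for *Dlk1* (0.15, 95% interval −0.08 to 0.39) or *Sgce* (−0.24, 95% interval −0.57 to 0.10). The median of the 9 was 0.56, against −0.00322 over all genes. Without XAV939 replicate 1 or 3 or IWR-1 replicate 1 or 3 the count was 3. In these fits 10.1% to 14.0% of all genes were called either way, against 17.6% with every library. *Plagl1*, *Meg3* and *H19* passed in all 9 fits without 1 library. *Cdkn1c* (0.49 to 0.63, adjusted p up to 0.142) passed in 2 of these fits, *Mest* (0.44 to 0.66, adjusted p up to 0.141) in 4 and *Grb10* (0.35 to 0.37, adjusted p up to 0.0869) in 4. The summed chondrocyte markers differed in the same direction, with 12 of 13 called higher with IWR-1 than with XAV939, and their part was not tested.

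Whether a gene responded differently to a drug and to knockdown was tested with an interaction term over all 15 libraries (14271 genes). For IWR-1, 2 of the 9 genes were called, both with the higher response to IWR-1, against 10.5% of all genes called in that direction and 13.9% in the other. *Plagl1* was 1.21 higher in its log2 response to IWR-1 than to knockdown (SE 0.22, edgeR adjusted p = 0.00131) and *Grb10* 0.53 higher (SE 0.13, adjusted p = 0.00803). With the replicate block *H19* (0.70, adjusted p = 0.00726) and *Peg3* (1.10, adjusted p = 0.0087) were added, against 17.0% and 19.3% of all genes. *H19* was also called without siTnks/2 replicate 2 (0.96, adjusted p = 0.0089) and *Peg3* without DMSO replicate 3 (1.70, adjusted p = 0.00475). For XAV939, edgeR called 0 of the 9, DESeq2 called 2 (*Cdkn1c* and *Mest*), and the replicate block gave 5. Of all genes, 5.40% were called with a higher and 8.07% with a lower response to XAV939, or 12.7% and 15.4% with the block. DESeq2 called 12.5% of all genes in either direction. Under the block the response of *Cdkn1c* (−0.68, adjusted p = 0.00697), *Mest* (−0.77, adjusted p = 0.0175), *Meg3* (−0.69, adjusted p = 0.0182) and *Dlk1* (−0.45, adjusted p = 0.0349) was lower with XAV939 than with knockdown, and that of *Sgce* higher (0.51, adjusted p = 0.00556). For *Peg10*, which was not tested, the response to IWR-1 was 2.43 above that to knockdown (SE 0.18).

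The control cells of both tables differed in these genes. On a scale set over all 15 libraries, *Peg10* was at 229 ± 17.5 CPM in siCtrl and at 37.7 ± 4.68 CPM under DMSO (SD, n = 3 each), and *Peg3* at 1171 ± 140 and 199 ± 129 CPM. For 9 of the 10 genes, all but *Sgce*, every siCtrl library was above every DMSO library. The share of all genes that separated in this way was not computed, so the count shows nothing particular to these genes. Transfection, solvent and any difference in time cannot be told apart between these tables, and no test is given. Per kilobase of exon, *H19* had the highest level of the 10 in every group, from 1302 ± 131 CPM per kb with DMSO to 4528 ± 1582 CPM per kb in siTnks/2, and *Mest* was second, from 440 ± 49.7 CPM per kb with XAV939 to 891 ± 269 in siTnks/2 (SD, n = 3). *Peg10* was the lowest of the 10 with DMSO (5.65 ± 0.713 CPM per kb), where it did not overlap *Dlk1* just above it (8.14 ± 0.499 CPM per kb), and 8th of 10 with IWR-1 (22.6 ± 2.23 CPM per kb).

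Other imprinted genes were taken from a list of 57 mouse genes known to be imprinted in at least 1 tissue. Their imprinting in chondrocytes was not measured, and the parental groups below follow the list. Of the 57, 56 were found in the tables and 46 passed the filter of the drug table. With IWR-1, 11 of the 46 were called higher and 13 lower, beside 16.2% and 20.2% of all genes, and the median log2 fold change of the list was −0.06. With XAV939 1 of 46 was higher and 6 lower, beside 7.57% and 9.85% of all genes. The replicate block gave 4 higher and 10 lower there, beside 16.0% and 17.4%. After knockdown 5 of 44 were higher and 1 lower, beside 10.4% and 7.61%, and with the block 11 and 3, beside 18.1% and 16.5%. With IWR-1 against XAV939 9 of 46 were higher and 4 lower, beside 7.37% and 10.2%, and with the block 12 and 8, beside 14.1% and 16.6%. No difference between this list and the 9 genes was tested. Taking both lists together without *Peg10*, 11 of 24 tested paternally expressed genes were called higher and 4 lower with IWR-1, and 7 of 30 maternally expressed genes higher and 9 lower. The difference between the parental groups was not tested.

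Of the 7 maternally expressed genes around *Peg10* and *Sgce* on chromosome 6, none was called higher with IWR-1 and 4 were called lower, where 16.2% of all genes were higher and 20.2% lower. *Asb4*, encoding a ubiquitin ligase subunit, was at 10.6, 8.82 and 8.86 CPM under DMSO and at 5.67, 5.65 and 4.61 CPM under IWR-1 (log2 fold change −0.82, SE 0.16, edgeR adjusted p = 0.00197). *Pon3*, a paraoxonase gene, was at 58.1, 51.9 and 58.8 CPM and at 38.5, 37.3 and 40.6 CPM (−0.54, SE 0.11, adjusted p = 0.00351). *Tfpi2*, a protease inhibitor gene, was at 1.34, 1.95 and 2.14 CPM and at 0.639, 0.770 and 1.04 CPM (−1.09, SE 0.32, adjusted p = 0.0174). These groups did not overlap. *Calcr*, the calcitonin receptor gene, had 19, 18 and 21 counts with DMSO and 1, 0 and 3 with IWR-1 (edgeR adjusted p = 0.000446), too few for a fold. *Pon2* passed with the replicate block (−0.33, adjusted p = 0.0247). *Casd1* and *Ppp1r9a* were not called, with differences of 0.09 (SE 0.10) and 0.20 (SE 0.13). After knockdown, when *Peg10* and *Sgce* were lower, *Ppp1r9a* (0.68, SE 0.11, edgeR adjusted p = 0.00991), *Casd1* (0.34, SE 0.06, adjusted p = 0.0156) and *Pon2* (0.30, SE 0.07, adjusted p = 0.0307) rose.

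**Figure D3:**
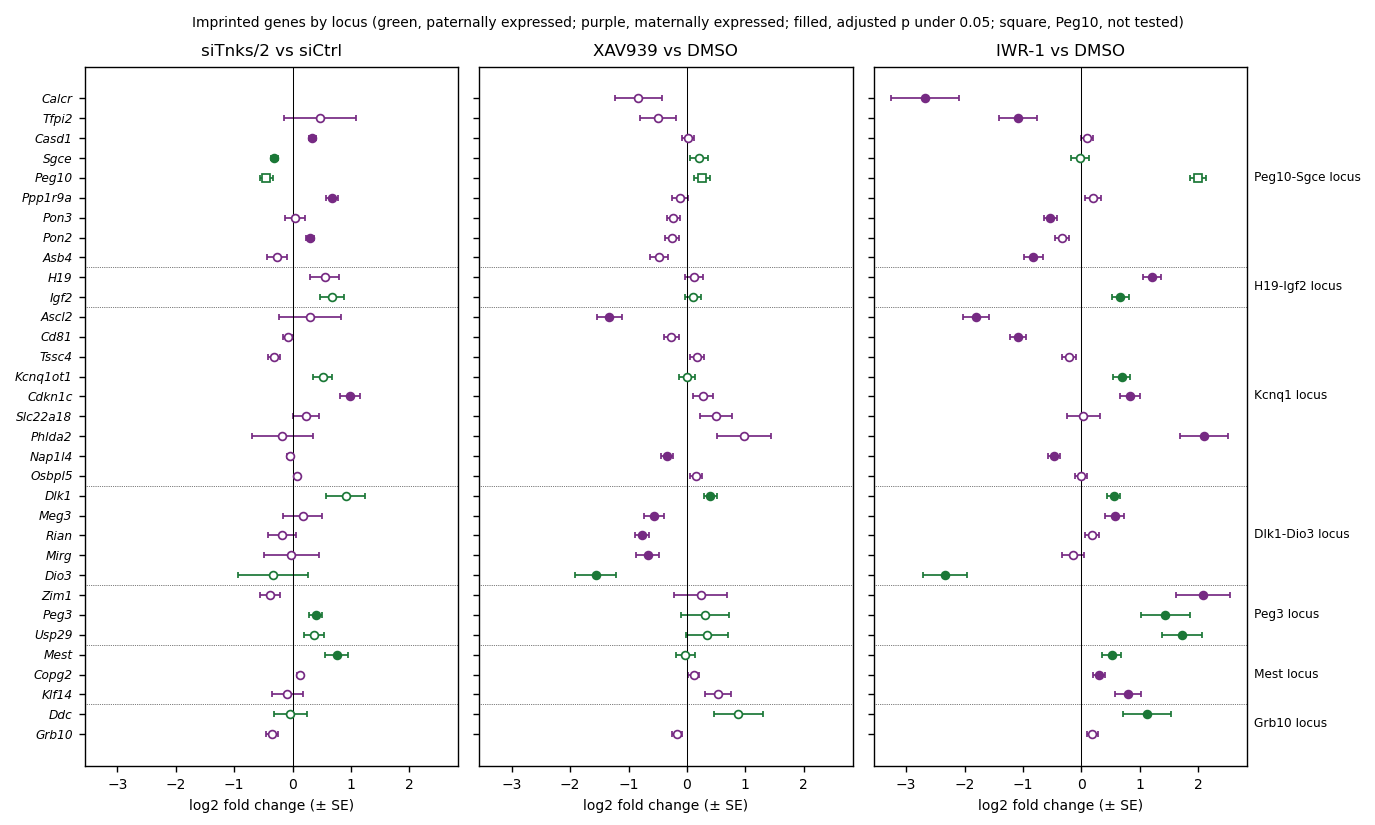
Log2 fold change (± SE) of the tested imprinted genes of 7 loci, ordered by position within each locus. Green symbols are paternally and purple ones maternally expressed genes, and filled symbols passed an adjusted p of 0.05. At the Peg10-Sgce locus *Peg10* (square, not tested) stands at 2.00 with IWR-1, where 3 genes tested at the Peg3 locus are filled on the right.

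With IWR-1 the genes linked to *Peg3* moved with it. *Zim1*, a maternally expressed zinc finger gene, was at 32.2, 41.2 and 61.8 CPM against 5.76, 5.91 and 20.2 CPM under DMSO (log2 fold change 2.08, SE 0.47, edgeR adjusted p = 0.00508), and *Usp29*, a paternally expressed gene that starts beside *Peg3*, at 3.11, 2.76 and 3.77 CPM against 0.732, 0.582 and 1.51 CPM (1.72, SE 0.34, adjusted p = 0.00195). In all 3 genes DMSO replicate 3 was the highest of its group, as it was for *Tnks*, at 64.1 CPM against 26.2 and 20.0 CPM. *Peg3* reads per *Zim1* read were 22.6, 20.4 and 17.1 with DMSO and 11.9, 12.1 and 11.9 with IWR-1, without overlap (exact permutation test, two-sided, p = 0.1, the smallest possible, adjusted p = 0.2). After knockdown *Peg3* rose while *Zim1* was at 76.8, 102 and 84.3 CPM against 103, 145 and 97.5 CPM in siCtrl (−0.39, edgeR adjusted p = 0.153, and −0.38, adjusted p = 0.0114 with the replicate block). In the cluster of *Dlk1* and *Meg3*, *Dio3*, which encodes the deiodinase that inactivates thyroid hormone, was at 3.26, 3.84 and 1.79 CPM under DMSO, at 1.19, 1.13 and 0.586 CPM under XAV939 and at 0.756, 0.417 and 0.435 CPM under IWR-1. It was called lower with both inhibitors (−1.56, SE 0.35, edgeR adjusted p = 0.0102, and −2.34, SE 0.38, adjusted p = 0.000473), as paternally expressed *Dlk1* in the same cluster was called higher with both. *Rian* and *Mirg*, noncoding RNAs downstream of *Meg3* and chosen here after their values were seen, were lower with XAV939 as *Meg3* was (−0.78, adjusted p = 0.00172, and −0.67, adjusted p = 0.038). With IWR-1 against DMSO, where *Meg3* was called higher, *Rian* (0.19, edgeR adjusted p = 0.249) and *Mirg* (−0.15, edgeR adjusted p = 0.591) were not called. Near *Cdkn1c*, *Phlda2*, a growth-restraining placental gene, had 9, 4 and 3 counts with DMSO and 33, 33 and 23 with IWR-1 (2.10, SE 0.41, edgeR adjusted p = 0.000756), and *Ascl2*, a transcription factor gene, fell with XAV939, from 19.7, 15.9 and 11.7 CPM to 6.71, 7.09 and 4.97 CPM (−1.33, SE 0.22, adjusted p = 0.00229). *Ascl2* was also called lower with IWR-1 than with DMSO (−1.80, SE 0.22, edgeR adjusted p = 0.000113).

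**Figure D4:**
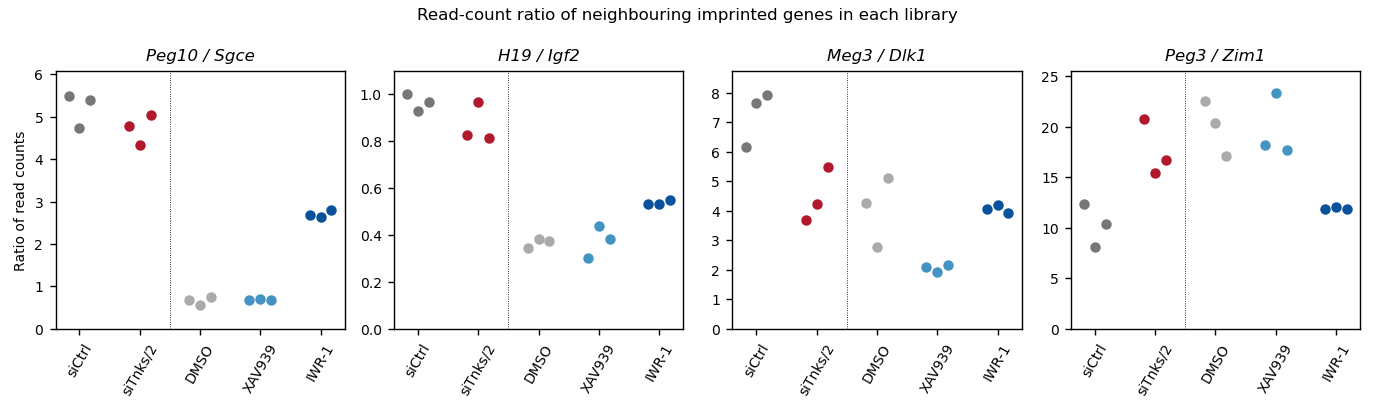
Ratio of read counts of linked imprinted genes (linear axes from 0) in the 15 libraries, with points for replicates 1 to 3. *Peg10* per *Sgce* read was 2.63 to 2.81 with IWR-1 against 0.572 to 0.757 with DMSO, and *Meg3* per *Dlk1* read 1.92 to 2.15 with XAV939 against 2.77 to 5.12 with DMSO.

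Farther from these loci, *Magel2*, a paternally expressed gene of the Prader-Willi region, had the largest increase of the list with IWR-1. It was at 0.732, 2.62 and 1.19 CPM under DMSO, at 4.10, 7.96 and 4.14 CPM under XAV939 and at 15, 22.2 and 17.6 CPM under IWR-1 (log2 fold change 1.77, SE 0.41, edgeR adjusted p = 0.0124, and 3.53, SE 0.41, adjusted p = 7.7e-05). In siCtrl it was at 14.6, 26.6 and 14.0 CPM, and the knockdown libraries overlapped these at 18.9, 41.2 and 17.1 CPM (0.48, SE 0.40, edgeR adjusted p = 0.42). Each was above the control of the same replicate number, and the difference was called with the replicate block (0.43, SE 0.09, adjusted p = 0.0163). Among the genes called lower, *Slc38a4*, an amino acid transporter gene, fell with XAV939 (−0.92, SE 0.23, edgeR adjusted p = 0.0207), *Dcn*, encoding the proteoglycan decorin, was lower with IWR-1 than with XAV939 (−0.94, SE 0.21, adjusted p = 0.0104), and *Rasgrf1* had 15, 9 and 18 counts with DMSO and 1, 1 and 2 with IWR-1. With IWR-1 against DMSO, *Slc38a4* (−1.22, SE 0.24, edgeR adjusted p = 0.00198) and *Dcn* (−1.29, SE 0.21, adjusted p = 0.000698) were called lower as well. After knockdown *Airn* (0.49, SE 0.13, edgeR adjusted p = 0.0418) and *Zdbf2* (0.40, SE 0.11, adjusted p = 0.0454) rose, and *Impact* fell by 0.31 (SE 0.05, adjusted p = 0.0135). With IWR-1 against DMSO, *Impact* (0.67, SE 0.12, edgeR adjusted p = 0.00123) and *Zdbf2* (0.77, SE 0.20, adjusted p = 0.0113) were called higher, and *Airn* was not called.

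The genes of the drug table whose pattern was closest to that of *Peg10* were found by the root-mean-square difference of their log2 CPM over the 9 libraries, after each gene's mean was removed. They were *Gpr141* (0.196), a receptor gene, *Bcan* (0.202), encoding the proteoglycan brevican, *Chrdl1* (0.238), encoding a BMP antagonist, *Slc35f1* (0.249) and *Rab39b* (0.254), a small GTPase gene. *Rab39b* was at 3.75, 4.19 and 5.15 CPM under DMSO, 5.2, 4.65 and 5.80 with XAV939 and 15.9, 15.2 and 15.3 with IWR-1. They were chosen on these libraries, so no test is given there. In the siRNA table, which did not choose them, none of the 5 was called lower, where 7.61% of all genes were called lower and 10.4% higher. A count over 5 genes is too small to set against these shares. *Bcan* (1.61, SE 0.07, edgeR adjusted p = 0.000462) and *Slc35f1* (1.07, SE 0.17, adjusted p = 0.00971) rose after knockdown. *Gpr141*, *Chrdl1* and *Rab39b* were not called (0.38, 0.57 and −0.07), though *Chrdl1* passed with the replicate block (0.56, SE 0.05, edgeR adjusted p = 0.00298). Among the 9 other imprinted genes of the list, *H19* was closest to *Peg10*, at rank 74 of 13872 genes (0.400), followed by *Plagl1* at rank 122, and *Sgce* was farthest, at rank 7703. Over all 15 libraries *Rab39b* came first, and the other 4 genes gave way to *Lrp4*, *Cobl*, *Ak5* and *Echdc3*.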

How the data were processed

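RNA-seq libraries were made by the study with a TruSeq Stranded mRNA kit from articular chondrocytes. Per the submitters' processing notes and the study's methods, reads were trimmed with Trimmomatic 0.32, aligned to mm10 with TopHat2 2.0.13 and counted per gene with HTSeq 0.6.1p1. The authors deposited raw read counts per Entrez gene in 2 tables of 24134 genes. For the counting step, neither annotation release nor strand setting is given in the sources used here.

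Groups came from the sample labels. The counts were fitted with edgeR 4.0.16 under R 4.3.3 (TMM normalization, filterByExpr, quasi-likelihood test, prior count 2), 1 fit per table, and all 15 libraries for differences of responses, with Benjamini-Hochberg adjustment over all genes tested. The fit was checked on simulated counts. Symbols were found for 24051 gene IDs, and 83 had none. Named genes outside the list were, per comparison, up to 3 imprinted genes each way with the largest called change and libraries that did not overlap, the genes of the *Peg10* cluster and the 5 genes nearest to *Peg10* in pattern. The members and lists were chosen with earlier results of these data known. Alternatives were RLE and upper-quartile normalization, no filter, at least 10 counts in every library, DESeq2 1.42.0, a fit of only the 2 groups compared, a replicate block, and each library left out.

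Samples with the same replicate number in the labels deviated together from their group means (correlations 0.143 to 0.553 over 9 pairs in the drug table and 0.424 to 0.519 over 3 pairs in the siRNA table), so the numbers were taken to pair the samples. Calls are from fits that ignore this pairing unless the replicate block is named, and the block called more genes. For different numbers the correlations reached at most 0.318 and 0.0972.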

Additional observations from a re-analysis of the deposited data

Results flagged for a closer look

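The responses of 2 imprinted genes to IWR-1 and to the knockdown differed by a test of the difference itself. For *Plagl1* the log2 response to IWR-1 exceeded that to knockdown by 1.21 (SE 0.223, edgeR's quasi-likelihood interaction test, adjusted p = 0.00131), with every IWR-1 library above every DMSO library and overlapping libraries after knockdown. For *Grb10* the difference was 0.528 (SE 0.129, edgeR adjusted p = 0.00803), with every IWR-1 library above every DMSO library and every knockdown library below every control library. Neither *Grb10* change passed the limit by itself as first fitted, without a replicate block. The change after knockdown did with the block (edgeR adjusted p = 0.0125) and without siTnks/2 replicate 2 (edgeR adjusted p = 0.0362). Both differences passed in each of the 15 fits that left out 1 library, from 1.08 to 1.29 for *Plagl1* and from 0.426 to 0.573 for *Grb10*. The experiments also differed in transfection and solvent, and perhaps in time, since no harvest time is given for the siRNA experiment. These cannot be told apart from the kind of inhibition.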

How the results depend on the processing

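Of the 9 tested genes, the number called with XAV939 was 2, against 1 with upper-quartile normalization and 0 in a fit of only the 2 groups compared. Of all genes, 17.4%, 18.1% and 11.5% were called in these fits, in the same order. With the replicate block, which used the pairing by replicate number, the number called rose from 4 to 7 after knockdown, from 0 to 5 for the difference between the XAV939 and knockdown responses and from 2 to 4 for that between IWR-1 and knockdown. DESeq2 gave 2 for the XAV939 and knockdown difference. Leaving out 1 library gave 0 to 4 called genes after knockdown, 0 to 3 with XAV939, 4 to 7 with IWR-1, 3 to 7 for IWR-1 against XAV939, 0 to 2 for the difference between XAV939 and knockdown and 2 to 3 for that between IWR-1 and knockdown. The causes of these changes in the counts were not tested. Fits without 1 library also held fewer libraries. No alternative turned the direction of a called value. Over all genes, the replicate block raised the number called from 2459 to 4727 after knockdown, from 2416 to 4630 with XAV939 and from 2442 to 4258 for IWR-1 against XAV939. For the difference between IWR-1 and knockdown it rose from 3483 to 5181, and for that between XAV939 and knockdown from 1922 to 4018. In the difference between XAV939 and knockdown 40.1% of called genes were higher, and 52.7% with upper-quartile normalization. With 3 libraries a group, intervals such as that of *Peg3* between IWR-1 and XAV939 (0.21 to 2.04) are wide.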
